A study of Homo sapiens with 4 samples.

Results

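The genes described here encode 7 RNA-binding and adaptor proteins that set how long AU-rich messenger RNAs last: ZFP36, ZFP36L1, ZFP36L2, ZC3H12A, ELAVL1, KHSRP and TOB2. They were listed by symbol, with earlier results of these data known, and all 7 were found among the 26601 genes listed for all 4 libraries. Each passed the filter on low values (an average over the 4 libraries of 1 RPKM or more), as did 10771 genes in all. The cells were MOLM-13, a cell line derived from human acute myeloid leukaemia with an MLL-AF9 fusion and an internal tandem duplication of FLT3. The GADD45g induced group held 2 libraries of cells in which GADD45G was overexpressed by 4 days of doxycycline (labelled 1 mg/ml). GADD45G is induced by stress and activates MAP3K4, a kinase above p38 and JNK. The untreated control group held 2 libraries of the same line without treatment. Doxycycline and the transgene differed together between the groups and cannot be told apart. The labels do not say whether the cells are 1 clone or whether the control cells carry the construct.

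Short-lived messages, among them those of cytokines, chemokines and immediate early factors, carry AU-rich elements in the 3′ untranslated region (UTR). ZFP36 (tristetraprolin) and its paralogues ZFP36L1 and ZFP36L2 bind these elements through a pair of CCCH zinc fingers and bring in the CCR4-NOT deadenylase, which shortens the poly(A) tail. ZC3H12A (Regnase-1) is an endonuclease that cuts stem-loops in inflammatory messages, KHSRP promotes decay of AU-rich messages, and ELAVL1 (HuR) binds them and commonly stabilises them. TOB2 is a member of the BTG/TOB family that links RNA-binding proteins to the deadenylase. In macrophages ZFP36 and ZC3H12A are known as brakes on inflammatory output, and p38 with its substrate kinase MAPKAPK2 controls ZFP36 by phosphorylation.

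The motif that ZFP36 proteins bind best is the nonamer TTATTTATT (written as DNA, searched on the sense strand), which contains the pentamer ATTTA. It was searched for in the 3′ UTR of the GENCODE release 29 transcript with the longest coding sequence of each gene, and 7.89% of the 10016 tested genes with such a UTR held at least 1. Among the 7 genes it was found 1 time each in ZFP36, ZFP36L1, ZFP36L2 and ELAVL1 and was not found in ZC3H12A, KHSRP or TOB2. The sites are shown because the messages of all 3 ZFP36 proteins themselves carry the letters their zinc fingers read. Set beside them are 3 of the bound messages named further on that hold the nonamer. Others named there did not all hold it: IL1A, CDKN1A, JUN, MYC, PLAU and IL6 held 0 and LIF held 2. Each window is 30 bases of the transcript, 5′ to 3′, with the first nonamer in capitals.
ZFP36: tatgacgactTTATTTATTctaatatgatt
ZFP36L1: aactgttggaTTATTTATTttagaaattcc
ZFP36L2: actatttaacTTATTTATTatcttgtgaaa
ELAVL1: atttatgtatTTATTTATTgaagtgtgaaa
CXCL8: atgtaaagtaTTATTTATTtgaatctacaa
CXCL2: agtcttctatTTATTTATTtatttatttat
PTGS2: atgatcatatTTATTTATTtatatgaacca
In CXCL2 the nonamer occurred 5 times in overlapping repeats, in CXCL8 1 time and in PTGS2 1 time, near the start of its UTR (base 18). ZFP36 held 5 ATTTA pentamers in 669 bases of UTR, ZFP36L1 held 8 in 1871 bases, ZFP36L2 held 5 in 1917 bases and ELAVL1 held 13 in 4904 bases. ZC3H12A and KHSRP held 0 pentamers and TOB2 held 3. A match describes letters only and does not show binding in these cells.

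Levels are given as RPKM, which corrects read numbers for the length of the gene and the size of the library. The depth recovered from the values was 18895470 and 15968886 reads in the induced libraries and 18778791 and 15683931 reads in the controls. GADD45G stood at 3236 and 2118 RPKM in induced cells, against 10.5 and 0.289 RPKM in control cells. Of the defining markers of the line, PTPRC (means of 32.3 RPKM in induced and 24.5 RPKM in control cells), SPI1 and CD33 were present, while FLT3 stood at 0.0889 and 0.0451 RPKM in induced cells against 0.958 and 1.19 RPKM in control cells, and MPO and CD68 were below 1 RPKM in all 4. Of 7 tested myeloid markers 2 rose and 1 fell with limma (described below), against 12.2% higher and 26.7% lower over all tested genes. LYZ fell to 268 and 242 RPKM in induced cells, against 1173 and 868 RPKM in control cells, while ITGAX stood at 116 and 151 RPKM, against 13.2 and 23.4 RPKM, and ITGAM also rose. The summed level of 11 myeloid markers was 551 and 548 RPKM in induced cells, against 1309 and 1028 RPKM in control cells, and without LYZ it was 283 and 306 RPKM, against 136 and 160 RPKM. Markers of another cell type, epithelial cells, set both replicate 1 libraries apart. KRT8 stood at 13.9 RPKM in induced 1 and 13.2 RPKM in control 1, against 0.0375 RPKM in induced 2 and 0 in control 2. The fibroblast genes FAP and TAGLN showed no such gap. FAP stood at 4.27 and 4.10 RPKM in induced cells, against 2.97 and 1.90 RPKM in control cells. TAGLN stood at 2.23 and 2.13 RPKM, against 1.13 and 1.40 RPKM. The summed level of 15 epithelial and fibroblast markers was 46.7 RPKM in induced 1 and 6.86 RPKM in induced 2, against 44.5 RPKM in control 1 and 3.85 RPKM in control 2, and EPCAM stood at 0 in both replicate 2 libraries. For this reason each of the 7 changes is also given within the replicate 1 and within the replicate 2 libraries alone, which allow no test. RNA came from whole cultures, so fewer cells of a type and less RNA per cell cannot be told apart.

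Each change is a difference in log2(RPKM + 1), a scale that compresses the changes of weakly expressed genes, from limma over all 10771 tested genes with Benjamini-Hochberg adjustment and a threshold of 0.05. Of the 7 genes, 3 rose (ZFP36, ZFP36L1 and ZC3H12A), 3 fell (ZFP36L2, KHSRP and TOB2) and ELAVL1 did not pass. The 7 were chosen with earlier results of these data known, so this count is not independent evidence. Over all tested genes 38.9% passed, 12.2% being higher and 26.7% lower; the number that passed was 4185, against 2719 without induced 1 and 2597 without induced 2. After TMM scaling 1956 were higher and 2042 lower, in place of 1314 and 2871. The values of the groups did not overlap for any of the 7, as for 70.0% of all tested genes. The median log2 change of all tested genes was -0.21, and TMM scaling of the values moved it to 0.01.

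The members of the ZFP36 family moved in opposite directions. ZFP36L2 made up most of the family in control cells and fell about 4-fold, while ZFP36 rose about 4-fold and ZFP36L1 rose 12.0-fold. ZFP36 (ENSG00000128016), which was first found as an immediate early gene, stood at 59.6 and 63.2 RPKM in induced cells, against 11.0 and 18.1 RPKM in control cells. Both induced values lay above both controls, and the counting intervals of the controls did not overlap (95% Poisson intervals 9.96 to 12.1 RPKM from 415 reads and 16.7 to 19.7 RPKM from 571 reads). The group means were 61.4 ± 2.57 and 14.6 ± 5.03 RPKM in induced and control cells (SD, n = 2 each), a ratio of 4.22 and a log2 change of 2.04 ± 0.27 (SE; limma adjusted p = 0.000211). It was 2.34 within the replicate 1 libraries and 1.75 within the replicate 2 libraries. Control 1 had the lower of the control values.

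ZFP36L1 (ENSG00000185650), which is known to restrain proliferation in lymphocyte precursors of the mouse together with ZFP36L2, stood at 25.4 and 23.4 RPKM in induced cells, against 2.10 and 1.96 RPKM in control cells. Replicates lay close together in both groups, at 0.12 and 0.07 apart on the log2 scale in induced and control cells. The log2 change was 3.07 ± 0.21 (SE; limma adjusted p = 4.20e-06), rank 65 of all tested genes by size of increase. The values came from 3210 and 2492 reads in the induced libraries and 263 and 205 reads in the controls, and the change was 3.09 and 3.04 within the replicate 1 and replicate 2 libraries.

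ZFP36L2 (ENSG00000152518), the family member known for a role in blood stem and progenitor cells of the mouse, stood at 43.6 and 41.6 RPKM in induced cells, against 194 and 151 RPKM in control cells. It ranked 766 among the tested genes by mean level in induced cells, against 136 in control cells. The log2 change was -1.98 ± 0.25 (SE; limma adjusted p = 0.000167), and 2 of the 3 family members therefore moved up while the most abundant one moved down. Within the replicate 1 libraries it fell by 2.13 on the log2 scale and within the replicate 2 libraries by 1.83. The directions of the 3 family members were the same under all 17 alternative settings. Many of these could not have reversed them. Some change only the filter or the variance model and leave the log2 change as it was. Leaving out 1 library cannot reverse a change between groups that do not overlap.

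**Figure D1:**
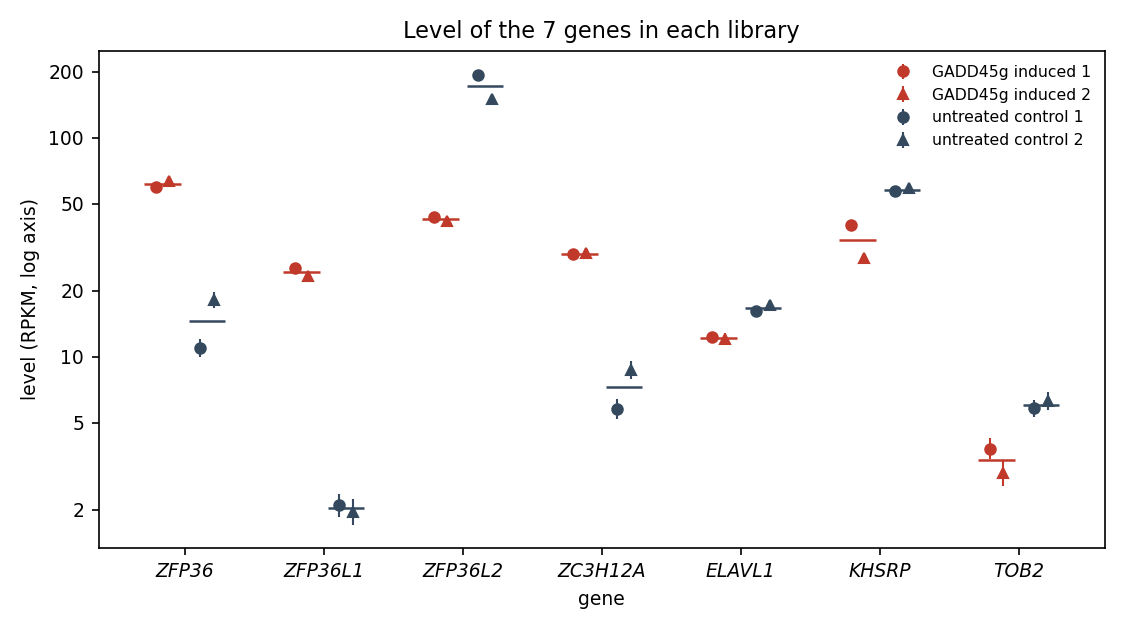
Level of each of the 7 genes (RPKM, log axis) in the GADD45g induced libraries (red, left of each pair) and untreated controls (dark, right); circles are replicate 1, triangles replicate 2, bars 95% Poisson counting intervals, and short lines group means. ZFP36, ZFP36L1 and ZC3H12A lie higher in both induced libraries and the other 4 genes lower, with no overlap for any gene.

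The make-up of the family differed between the groups. RPKM is per length, so levels of the 3 genes can be summed and compared only as far as the gene lengths used are right. These were 2010 bases for ZFP36, 6676 bases for ZFP36L1 and 3696 bases for ZFP36L2, as recovered from the values. A length beyond that of the transcripts present lowers the RPKM of a gene and its share. This was not tested. ZFP36 supplied 46.3% and 49.3% of the family's summed RPKM in induced cells, against 5.31% and 10.6% in the controls. ZFP36L1 supplied 19.8% and 18.2% in induced cells, against 1.01% and 1.15% in the controls. ZFP36L2 supplied 33.9% and 32.5% in induced cells, against 93.7% and 88.2% in the controls. The share of ZFP36 was thus 39.8 percentage points higher in induced cells (47.8% ± 2.11 and 7.96% ± 3.75 in induced and control cells, SD, n = 2 each). The summed level of the family was 129 and 128 RPKM in induced cells, against 207 and 171 RPKM in control cells. In the values as deposited the 3 genes together were thus lower in induced cells although 2 of them rose. TMM scaling divides the induced values by 0.9195 and 0.9041 and the control values by 1.097 and 1.096, which narrows that difference. No test is given for shares and sums, because an exact two-sided permutation test of 2 libraries against 2 cannot go below p = 0.333.

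**Figure D2:**
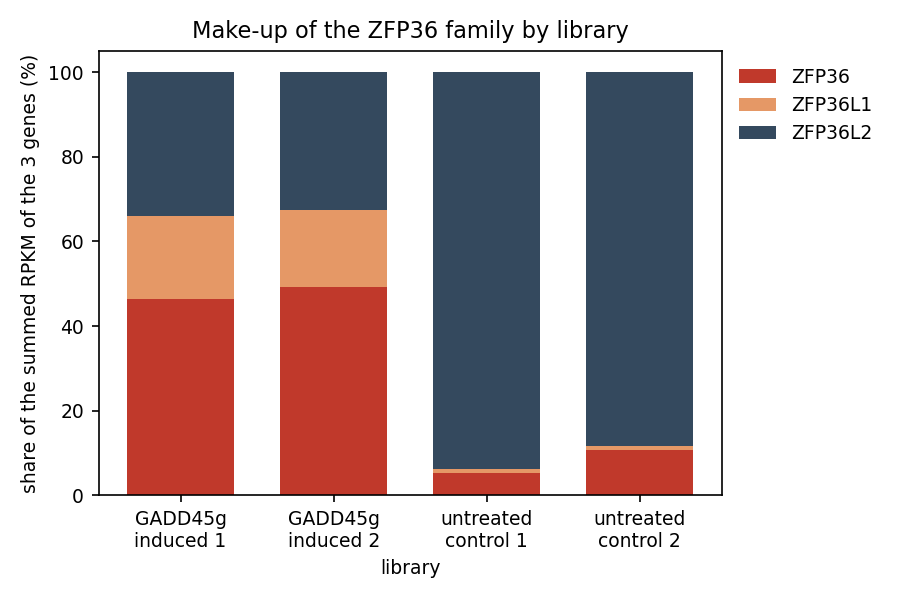
Share of the summed RPKM of ZFP36, ZFP36L1 and ZFP36L2 (%) taken by each gene in each library, induced libraries first. ZFP36L2 takes 33.9% and 32.5% in the induced libraries and 93.7% and 88.2% in the controls.

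ZC3H12A (ENSG00000163874), the endonuclease, moved in the same direction as ZFP36. It stood at 29.5 and 29.8 RPKM in induced cells, against 5.77 and 8.73 RPKM in control cells. As for ZFP36, control 1 was the lower control, and the induced libraries differed by 0.01 on the log2 scale. The ratio of group means was 4.08 and the log2 change 1.92 ± 0.24 (SE; limma adjusted p = 0.000176), with 2.17 within the replicate 1 libraries and 1.66 within the replicate 2 libraries.

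RefSeq windows of the 250 bases before the transcription start (GRCh38.p14) were available for 5 of the 7 genes. Those of ZFP36 and ZC3H12A are shown because these genes rose by like amounts and each has a single annotated start. Capitals mark matches to TATAA (sense strand) and, on both strands, to the GC box core GGGCGG, the AP-1 motif TGANTCA, the CRE TGACGTCA, the EGR motif GCGNGGGCG and an exact NF-kB motif. The GC box matches can overlap the EGR match.
ZFP36 (chr19:39406597-39406846, plus strand): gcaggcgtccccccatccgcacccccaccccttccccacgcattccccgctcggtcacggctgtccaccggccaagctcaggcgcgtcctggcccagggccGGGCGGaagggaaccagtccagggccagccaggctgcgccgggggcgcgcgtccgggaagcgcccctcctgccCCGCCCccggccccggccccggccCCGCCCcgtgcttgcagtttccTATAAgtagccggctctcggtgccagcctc
ZC3H12A (chr1:37474330-37474579, plus strand): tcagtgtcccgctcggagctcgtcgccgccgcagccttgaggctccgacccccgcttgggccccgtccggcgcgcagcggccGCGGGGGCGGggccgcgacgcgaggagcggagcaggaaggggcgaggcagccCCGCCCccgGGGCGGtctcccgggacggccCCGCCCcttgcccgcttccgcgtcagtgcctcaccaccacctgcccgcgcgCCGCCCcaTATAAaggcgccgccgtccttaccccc
Both windows held 1 TATAA, which begins at position -30 from the start in ZFP36 and at -27 in ZC3H12A, and 13.6% of all 35116 windows of this length held one. The ZFP36 window held 3 GC boxes and the ZC3H12A window 5, against 42.6% of all windows with at least 1. ZC3H12A also held 1 EGR match (8.41% of all windows). Neither window held the AP-1 letters (6.57%), the CRE (1.65%) or the NF-kB letters (0.527%). ZFP36L1 has 2 annotated starts, 1 of which has the CRE in its window, and the windows of KHSRP and TOB2 held 2 GC boxes each.

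The remaining 3 genes were lower in induced cells by smaller amounts. ELAVL1 (ENSG00000066044), the stabilising protein, stood at 12.3 and 12.1 RPKM in induced cells, against 16.1 and 17.3 RPKM in control cells. Its log2 change was -0.43 with a 95% confidence interval of -0.91 to 0.06 (limma adjusted p = 0.147, unadjusted p = 0.0775), so it did not pass although the groups did not overlap. In GENCODE release 29 its exons share 528 bases with an unnamed gene on the opposite strand, and whether counting used strand is not stated. KHSRP (ENSG00000088247) stood at 40.0 and 28.2 RPKM in induced cells, against 57.1 and 59.0 RPKM in control cells. The induced libraries differed from each other by 0.49 on the log2 scale, and the log2 change was -0.77 ± 0.25 (SE; limma adjusted p = 0.0325). TOB2 (ENSG00000183864), the lowest of the 7 in induced cells, stood at 3.81 and 2.95 RPKM in induced cells, against 5.81 and 6.27 RPKM in control cells (log2 change -0.69 ± 0.22, limma adjusted p = 0.0280). The falls of KHSRP and TOB2 depended on the scaling: after TMM scaling the log2 changes were -0.51 and -0.47 (limma adjusted p = 0.131 and 0.113). Each call also ended when single libraries were left out: both without induced 2, without control 1 and without control 2, and that of TOB2 also without induced 1, with adjusted p-values in the closing section. Within the replicate 1 and replicate 2 libraries the changes were -0.37 and -0.48 for ELAVL1, -0.50 and -1.04 for KHSRP and -0.50 and -0.88 for TOB2.

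**Figure D3:**
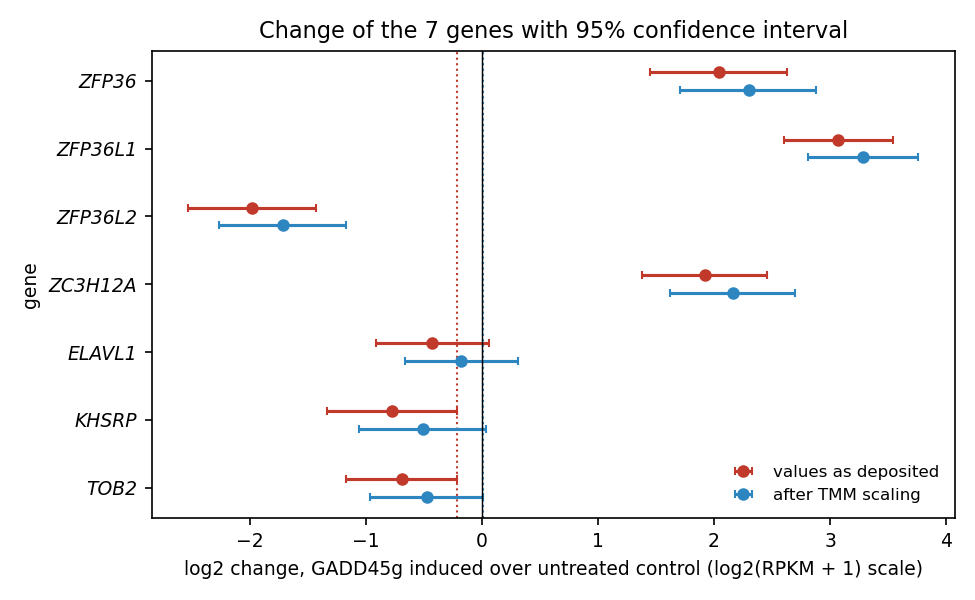
Log2 change of each gene, induced over control, with its 95% confidence interval from limma, for the values as deposited (red) and after TMM scaling (blue); dotted lines mark the median change of all tested genes, -0.21 and 0.01. The intervals of ZFP36, ZFP36L1, ZFP36L2 and ZC3H12A lie clear of 0 in both, and those of KHSRP and TOB2 reach 0 after scaling.

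The order of the levels, which also rests on the gene lengths used, changed with the family. By mean RPKM, induced cells held ZFP36 (61.4), ZFP36L2 (42.6), KHSRP (34.1), ZC3H12A (29.6), ZFP36L1 (24.4), ELAVL1 (12.2) and TOB2 (3.38). Control cells held ZFP36L2 (172), KHSRP (58.0), ELAVL1 (16.7), ZFP36 (14.6), ZC3H12A (7.25), TOB2 (6.04) and ZFP36L1 (2.03). KHSRP and ZC3H12A overlapped in the induced libraries, as did ELAVL1 and ZFP36, and ZC3H12A and TOB2, in the controls. The ratio of stabilising ELAVL1 to ZFP36 was 0.206 and 0.191 in induced cells, against 1.47 and 0.957 in the controls. That ratio takes ZFP36 alone, which supplied 5.31% and 10.6% of the family's summed RPKM in the controls. It does not describe ELAVL1 against the whole family. In the values as deposited the family's summed level was 129 and 128 RPKM in induced cells, against 207 and 171 RPKM in the controls. It was thus lower before TMM scaling and was not tested. ELAVL1 was also lower but did not pass the threshold.

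The tested genes nearest to each of the 7 in centred log2(RPKM + 1) over the 4 libraries, by Euclidean distance, were named as a description of shape alone. They were RUSC2, NINJ1 and MYBPH for ZFP36 (0.108 to 0.149), FCRLA, SLC7A7 and RHOH for ZFP36L1 (0.059 to 0.121), OIP5, PMS1 and ANP32B for ZFP36L2 (0.021 to 0.066) and TNFSF14, ATG2A and FYN for ZC3H12A (0.088 to 0.144). For ELAVL1 they were GNL2, MTA3 and ATAT1, for KHSRP SPATA20, RRP7A and ITPKA, and for TOB2 UQCC3, MRPS34 and BRD1. SLC7A7, for example, stood at 27.1 and 24.8 RPKM in induced cells against 2.15 and 1.90 RPKM in control cells, and ANP32B stood at 43.4 and 42.8 RPKM in induced cells against 196 and 159 RPKM in control cells.

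Other proteins that bind AU-rich and related stability elements moved in both directions. Of 21 tested, 3 rose and 9 fell, against 12.2% higher and 26.7% lower over all tested genes, with a median log2 change of -0.51. IGF2BP2, which protects messages from decay, rose to 5.60 and 7.08 RPKM in induced cells, against 1.10 and 1.08 RPKM in control cells (log2 change 1.80, limma adjusted p = 0.000127). ARID5A, which is known to stabilise the IL6 message against ZC3H12A, rose to 28.1 and 24.2 RPKM, against 8.89 and 12.6 RPKM in control cells. CELF2 was 4.01-fold lower and YBX1 2.82-fold lower. The number lower depended on the scaling: it was 2 after TMM, 3 with the median change shifted to 0, 6 after quantile and 7 after upper quartile scaling. The number lower was also smaller without induced 1, without induced 2 and without control 1, as was the number over all tested genes.

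Among the relatives of ZC3H12A and the Roquin proteins, which act on overlapping stem-loops, 1 of 6 tested genes fell and 0 rose with limma. The shares over all tested genes were 26.7% lower and 12.2% higher. ZC3H12C was higher at an unadjusted limma p under 0.05. After TMM scaling 2 of the 6 passed as higher, against 18.2% of all tested genes under that scaling. ZC3H12D, a paralogue, fell to 0.994 and 1.02 RPKM in induced cells, against 6.21 and 6.93 RPKM in control cells (log2 change -1.91, limma adjusted p = 7.48e-05), so that the paralogues ZC3H12A and ZC3H12D moved in opposite directions. The Roquin gene RC3H1 was at 3.42 and 4.11 RPKM in induced cells, against 3.66 and 4.08 RPKM in control cells. Of 3 tested relatives of TOB2, BTG1 and BTG2 rose, against 12.2% higher over all tested genes. BTG1 stood at 190 and 237 RPKM in induced cells, against 54.1 and 42.7 RPKM in control cells, and BTG2 at 14.4 and 16.1 RPKM, against 6.14 and 5.71 RPKM. TOB1 was at 3.67 and 3.40 RPKM in induced cells, against 5.41 and 3.29 RPKM in control cells, and did not pass.

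These proteins recruit deadenylases, decapping enzymes and the exosome. Of 17 tested genes of the CCR4-NOT and PAN deadenylases and their poly(A)-binding partners, 1 rose and 4 fell (median log2 change -0.44), near or below the 12.2% higher and 26.7% lower over all tested genes. The scaffold CNOT1 was at 14.6 and 20.5 RPKM in induced cells, against 22.1 and 31.0 RPKM in control cells, and did not pass. TNKS1BP1, a protein that associates with the complex, rose to 11.9 and 11.8 RPKM, against 3.02 and 3.97 RPKM in control cells, and the poly(A)-binding protein genes PABPC1 and PABPC4 were 3.10-fold and 2.00-fold lower. PABPC1 has near-identical copies, so its level depends on how shared reads were assigned. CNOT6, a catalytic subunit, fell with limma adjusted p = 0.0469.

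Of 19 tested decapping and 5′ to 3′ decay genes 7 fell and 0 rose (median -0.37). The falls included the ring subunits LSM5, LSM2 and LSM3, which were 4.02-fold, 2.43-fold and 2.16-fold lower and also belong to the spliceosomal U6 ring, and the scavenger enzyme DCPS, which was 3.22-fold lower. Of 17 tested genes of the exosome and its SKI helper complex, which degrade RNA from the 3′ end, 11 fell and 0 rose (median -0.82). EXOSC2 fell to 1.57 and 1.32 RPKM in induced cells, against 10.1 and 11.2 RPKM in control cells (log2 change -2.25, limma adjusted p = 3.13e-05), DIS3L was 6.56-fold lower, EXOSC5 5.87-fold lower and SKIC8 2.31-fold lower. After TMM scaling, under which 2042 of the 10771 tested genes were lower, 2 deadenylase, 5 decapping and 7 exosome genes passed as lower. The numbers lower were also smaller without induced 1, induced 2 or control 1 for the deadenylases and the exosome. For decapping they were smaller without induced 2, control 1 or control 2. The numbers over all tested genes were smaller as well without each of these libraries. Over all tested genes 26.7% were called lower before TMM scaling.

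Of 15 tested kinases, phosphatases and 14-3-3 proteins that act on ZFP36, 2 rose and 1 fell, against 12.2% higher and 26.7% lower over all tested genes. The p38 gene MAPK13 was 1.81-fold higher, the phosphatase subunit gene PPP2CB 1.81-fold higher and the 14-3-3 gene YWHAE 1.82-fold lower, a call that was lost after TMM scaling. MAPK14, which encodes p38 alpha, was at 52.2 and 45.9 RPKM in induced cells, against 61.0 and 49.1 RPKM in control cells, and MAPKAPK2 at 43.5 and 39.6 RPKM, against 45.2 and 51.7 RPKM, and neither passed. None of the 3 calls held without induced 1 or without control 1. RNA levels do not report the activity of these kinases.

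Messages known from the literature as bound by ZFP36 or ZC3H12A were mostly higher in induced cells, alongside ZFP36, ZFP36L1 and ZC3H12A. Of 31 tested, 25 rose and 2 fell, against 12.2% higher and 26.7% lower over all tested genes. Their median log2 change was 2.37, against -0.21 over all tested genes. Several had been seen to rise in these data before the list was made, so the count is not independent evidence of a direction. The filter used the average over all 4 libraries. Some genes below 1 RPKM in both controls, among them IL1A, LIF and PTGS2, thus entered only through their induced values. Such genes could not have been counted as lower. Listed genes low in both groups, such as IL6, are not among the 31. CXCL2, a chemokine, stood at 171 and 176 RPKM in induced cells, against 1.78 and 1.32 RPKM in control cells. CXCL2 is very like CXCL1 in sequence, so its level depends on how shared reads were assigned. PTGS2, the inducible cyclooxygenase, stood at 33.4 and 34.4 RPKM, against 0.647 and 0.0605 RPKM in control cells. IL1A, LIF, CXCL8, CDKN1A and JUN rose as well, by 4.99, 5.08, 8.14, 5.30 and 4.14 on the log2 scale. MYC fell to 1.59 and 1.07 RPKM in induced cells, against 35.1 and 42.9 RPKM in control cells, and PLAU was the other message that fell. IL6, a classical target of ZC3H12A, was at 0.0586 and 0 RPKM in the induced libraries and at 0 in both controls. TNF, through which ZFP36 was first understood, is listed for 3 libraries only and was not tested; it stood at 11.0 RPKM in induced 2, against 1.59 and 1.90 RPKM in control cells.

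**Figure D4:**
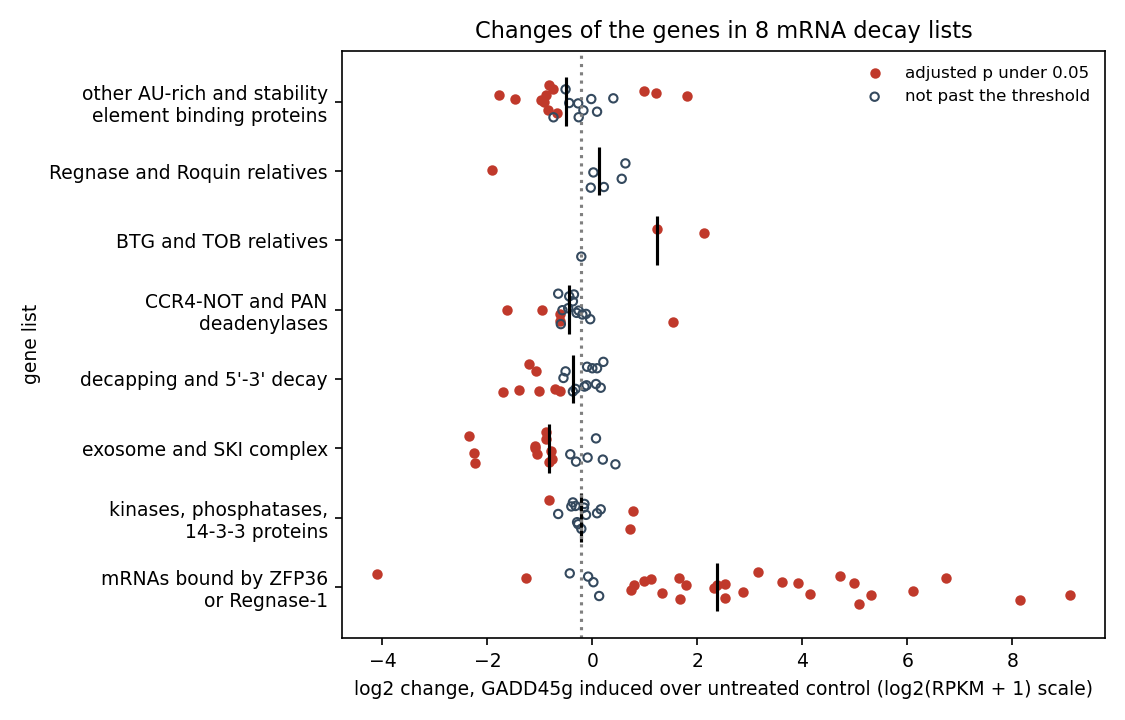
Log2 change, induced over control, of the tested genes in 8 lists of mRNA decay factors and bound messages; filled red points passed the threshold, open points did not, black bars are list medians and the dotted line is the median of all tested genes (-0.21). The bound messages have a median of 2.37 and the exosome and SKI genes one of -0.82.

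The nonamer also allowed all tested genes to be sorted by a feature of sequence rather than by name. Of 790 genes with at least 1 nonamer in the 3′ UTR, 19.4% were higher and 18.1% lower in induced cells (median log2 change -0.04). Of 9226 genes without one, 11.4% were higher and 28.1% lower (median -0.23). With 2 nonamers 25.4% of 122 genes were higher, and with 3 or more 23.7% of 59 genes. Genes with the nonamer had longer UTRs (median 2745 bases, against 873 bases without it), so the shares were also taken within 3 equal classes of UTR length. In the shortest class 28.3% of 46 genes with the nonamer were higher, against 10.3% of 3295 without it, in the middle class 28.6% of 196, against 12.5% of 3143, and in the longest class 15.3% of 548, against 11.5% of 2788. After TMM scaling 25.7% of genes with the nonamer and 17.5% of those without it were higher. Of the 31 bound messages, 14 held the nonamer. Only 1 transcript per gene was searched, and its UTR can be short (47 bases in VEGFA). Sites in other transcripts of a gene are therefore missed in this count and in the classes above. These shares are descriptions over genes, which are not independent replicates, and were given no test.

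**Figure D5:**
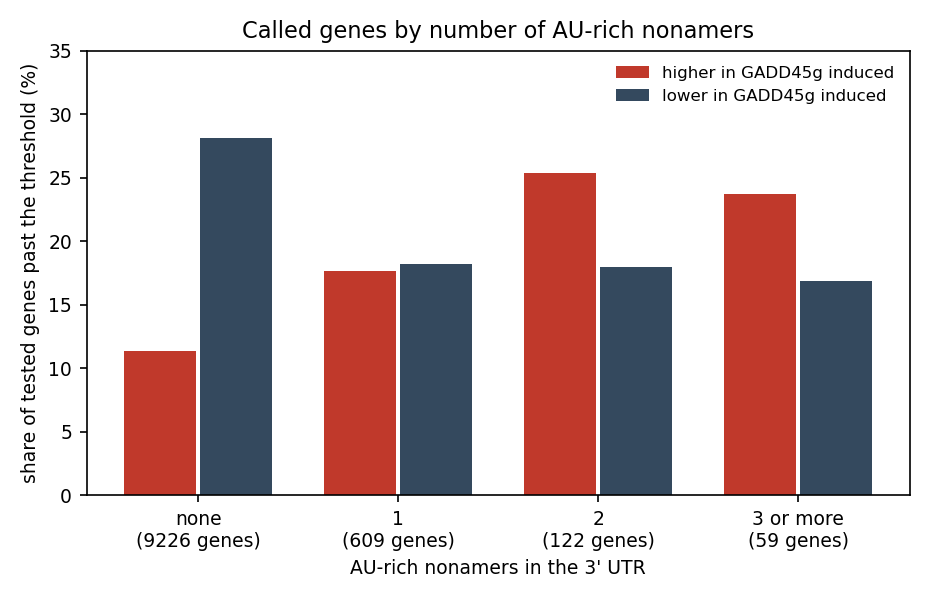
Share of tested genes that passed the threshold as higher (red) or lower (dark) in GADD45g induced cells, by number of TTATTTATT nonamers in the 3′ UTR, with the number of genes in each class. Genes without the nonamer were 11.4% higher and 28.1% lower, and those with 2 nonamers 25.4% higher and 18.0% lower.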

How the data were processed

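The values are RPKM per the file headers, 1 for each Ensembl ID in each library. TopHat, Cuffdiff and Cuffnorm are listed, per the submitters' processing notes, with hg19 as the build. The table of induced replicate 1 stops partway through a row, with 27332 of 57820 IDs, so testing was limited to genes present in every table. Symbols came from a table of gene names, which paired 51996 IDs, and rows of 1 symbol were summed.

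From these RPKM values, log2(RPKM + 1) was computed for genes averaging 1 RPKM or more and compared with limma 3.58.1 in R 4.3.3 (lmFit, eBayes with trend, two-sided, Benjamini-Hochberg over all 10771 genes, threshold 0.05; 2 residual and 8.72 prior degrees of freedom). In each library 100.0% of low values were whole multiples of 1 read within 0.01 reads where the gene model was identical in GENCODE release 29, which gave depths and, with lengths solved to make all 4 values whole, reads per gene. For a gene of 1 kb, 1 read amounted to 0.0529 to 0.0638 RPKM. Poisson intervals cover counting error only. The replicates are called biological in the series' design text, which does not say whether they were separate cultures. The p-values therefore cover no spread beyond these libraries. With 2 residual and 8.72 prior degrees of freedom, the variance behind each p-value came mostly from the trend over all tested genes. The gene's own replicates had the smaller weight. Replicate numbers follow accession order.

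The genes and lists were chosen with earlier results of these data known. Named genes are the 7, GADD45G, up to 4 called genes per list (8 for bound messages) with the lowest adjusted p-values and the 3 nearest genes of each of the 7. Markers, RC3H1, ZC3H12C, TOB1, CNOT1, MAPK14, MAPKAPK2, PLAU, IL6 and TNF lie outside this rule and were chosen after their values were seen. Lists of myeloid and of epithelial and fibroblast markers were used only to check the line; 1 other marker list is not reported here. Promoter windows and UTRs are of GRCh38, not the build of the files, and no coordinate was carried between builds. Alternatives are given in the closing section.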

Additional observations from a re-analysis of the deposited data

How the results depend on the processing

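Across 17 alternative settings the calls of ZFP36, ZFP36L1, ZFP36L2 and ZC3H12A were the same in direction and side of the threshold, with log2 changes of 1.71 to 2.38, 2.06 to 3.58, -2.16 to -1.71 and 1.51 to 2.18 and a highest adjusted p of 0.0256, and ELAVL1 passed in none of them (-0.47 to -0.18). KHSRP, at -0.77 with no filter on low values (limma adjusted p = 0.102), -0.51 after TMM, -0.60 after upper quartile (adjusted p = 0.0769) and -0.64 after quantile scaling (0.0604) and -0.56 with the median change shifted to 0, did not pass. TOB2 did not pass under the same settings, at -0.69, -0.47, -0.55, -0.42 and -0.48 (0.106, 0.113, 0.0748, 0.159 and 0.111). A filter at 5 RPKM removed TOB2. Leaving out each library gave -1.02 to -0.53 for KHSRP (adjusted p = 0.0987 without control 1, 0.107 without control 2 and 0.246 without induced 2) and -0.83 to -0.55 for TOB2 (0.0671 to 0.230). Between 4 and 6 of the 7 genes were called in every setting, and the ZFP36 share of the family was 37.2 to 42.5 percentage points higher without each library.

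Calls over all genes were 4185 (1314 higher, 2871 lower), 2462 with no filter (823 and 1639), and 2597 to 3582 without each library (798 to 1133 higher, 1766 to 2449 lower; 2719 without induced 1, 2597 without induced 2). After TMM scaling they were 1956 higher and 2042 lower. With a replicate block by title suffix they were 4987, KHSRP and TOB2 passed (adjusted p = 0.00728 and 0.0108), and the calls of the 7 genes did not change. Same-numbered libraries deviated together (r = 0.349 across genes), and both replicate 1 libraries share a title form and the epithelial markers, but with 2 pairs no label ties same-numbered libraries to 1 culture or batch, so the block is given only here. The cause of these shifts was not tested. Depth limited none of the 7, which had 205 reads or more in each library.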
